A study of Homo sapiens with 18 samples.

Results

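Long noncoding RNAs linked to inflammation were followed in THP-1, an established line of human monocytic leukaemia cells, with and without lipopolysaccharide (LPS), the bacterial cell wall product that activates monocytes through TLR4. The 8 genes are MIR155HG, MIR3142HG, MIR17HG, MIR22HG, NEAT1, MALAT1, LUCAT1 and CYTOR. They were chosen by name, as the Ensembl genes that carry these symbols in GENCODE 29, and are 8 of the 57500 genes in the deposited tables and 8 of the 14411 annotated there as long noncoding. All cells carried a hairpin delivered by lentiviral particles: a non-target hairpin (shNT), one against NR4A2 (shNR4A2) or one against NR4A3 (shNR4A3). Cells of each line were incubated for 2 h at 750000 cells per ml and then left unstimulated (control) or given LPS at 2.5 μg/ml for a further 2 h, which made 6 groups of 3 libraries, 18 in all. The sources give 1 line for each hairpin, so the line and its hairpin cannot be told apart. The replicates are described as independent experiments on the same lines. Polyadenylated RNA was selected before sequencing, and between 16171161 and 23929138 reads per library (median 19639071) were counted on genes.

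A long noncoding RNA acts as RNA, without being translated. Some are host genes, whose transcripts are cut by Drosha and Dicer into microRNAs that repress other messages: MIR155HG is the precursor of miR-155, a promoter of inflammatory signalling, MIR3142HG carries miR-146a, a brake on signalling from Toll-like receptors, MIR17HG carries the miR-17-92 cluster, known for its part in proliferation and survival, and MIR22HG carries miR-22. NEAT1 is the scaffold of paraspeckles, nuclear bodies that hold RNA-binding proteins, and MALAT1 is an abundant RNA of nuclear speckles, where splicing factors gather. LUCAT1 is known as an inducible RNA that restrains interferon and cytokine genes in myeloid cells, and CYTOR as a mostly cytoplasmic RNA linked to proliferation. NR4A2 and NR4A3 are nuclear orphan receptors, and genes of this family are themselves induced early by LPS.

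The microRNAs inside the host transcripts are shown because they say what a rise of each host could yield; mature microRNAs were not measured in these libraries. The sequences are those of RefSeq on GRCh38, 5′ to 3′, with the seed (bases 2 to 8, which pair with the target message) in capitals. The sequence of miR-155-5p lies in an exon of MIR155HG on the plus strand at chr21:25573983-25574006, that of miR-146a-5p in an exon of MIR3142HG on the plus strand at chr5:160485372-160485393, and that of miR-22-3p in an exon of MIR22HG on the minus strand at chr17:1713914-1713935. An exon of MIR17HG, on the plus strand of chromosome 13, holds 6 hairpins.
hsa-miR-155-5p: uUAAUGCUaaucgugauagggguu
hsa-miR-146a-5p: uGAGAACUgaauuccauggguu
hsa-miR-22-3p: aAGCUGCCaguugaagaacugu
hsa-miR-17-5p: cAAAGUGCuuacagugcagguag
hsa-miR-20a-5p: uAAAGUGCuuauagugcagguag
hsa-miR-18a-5p: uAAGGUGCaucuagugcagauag
hsa-miR-19a-3p: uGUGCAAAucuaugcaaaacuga
hsa-miR-19b-3p: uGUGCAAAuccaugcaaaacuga
hsa-miR-92a-3p: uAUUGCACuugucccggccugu
The seed AAAGUGC is shared by miR-17-5p and miR-20a-5p, and the seed GUGCAAA by miR-19a-3p and miR-19b-3p. The remaining sequences listed have seeds of their own.

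NR4A2 and NR4A3 were lower in the lines with hairpins against them. NR4A2 was at 4.16, 2.83 and 4.08 TPM in the 3 shNT control libraries and at 1.82, 1.63 and 2.41 TPM in the shNR4A2 control libraries. With LPS the values of NR4A2 were 62.2, 74.7 and 51.3 TPM in shNT cells and 20.5, 28.3 and 14.8 TPM in shNR4A2 cells. TPM is the count divided by gene length, then scaled so that all libraries have an equal total. Against shNT cells, NR4A2 in shNR4A2 cells differed by a log2 fold change of -0.91 ± 0.23 (SE, n = 3 against 3, edgeR adjusted p = 0.0359) without LPS and -1.52 ± 0.19 (edgeR adjusted p = 0.00265) with LPS, and the call without LPS was lost without any of 4 of the 6 libraries (shNT control replicates 1 and 3, shNR4A2 control replicates 1 and 2), with an adjusted p of up to 0.124. In shNR4A3 cells NR4A2 was at 2.51, 2.97 and 3.31 TPM in control and 41.8, 60.7 and 38.3 TPM with LPS. That difference of NR4A2 from shNT cells with LPS was -0.36 (edgeR adjusted p = 0.198), and with the replicate number blocked it was called (-0.37, edgeR adjusted p = 0.00132).

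NR4A3 was at 0.556, 0.693 and 0.512 TPM in shNT control and 0.158, 0.107 and 0.0315 TPM in shNR4A3 control libraries, the latter from 5, 3 and 1 counts. With LPS it was at 30.9, 32.3 and 31.9 TPM in shNT and 17.0, 18.2 and 16.7 TPM in shNR4A3 cells. Against shNT cells, NR4A3 in shNR4A3 cells differed by a log2 of -0.82 ± 0.08 (edgeR adjusted p = 0.000556) with LPS. Without LPS NR4A3 reached the filter on low counts in the shNT libraries alone, so the fitted -2.47 is given as a description. In the cells that carried its hairpin, NR4A3 was higher in every LPS library than in any control library. In shNR4A2 cells NR4A3 was at 0.707, 0.694 and 1.41 TPM in control and 33.0, 32.8 and 36.1 TPM with LPS. NR4A1, which neither hairpin targets, was between 4.02 and 9.08 TPM in the 9 control libraries and between 13.0 and 22.1 TPM in the 9 libraries with LPS.

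The cells carried monocytic markers: 16 of 16 listed genes, among them LYZ, TYROBP and FCER1G, had a mean of at least 1 TPM in every group, with a summed level between 6696 TPM (shNT control) and 7996 TPM (shNR4A3 control). Of 17 markers of other blood and stromal cells, 14 were under 1 TPM in every group. The most abundant of these markers was PECAM1, which monocytes also express, at 174 TPM in shNT control and 269 TPM in shNR4A2 control cells, and the whole list summed to between 144 and 277 TPM per group. Between 2 and 6 of the 17 had no count in a group. Group means of the T cell gene CD3E were between 0 and 0.216 TPM and those of the red cell gene HBB between 0 and 0.0947 TPM. PECAM1 was higher in shNR4A2 than in shNT cells by a log2 of 0.63 ± 0.12 (edgeR adjusted p = 0.00936) in control and 0.70 ± 0.13 (edgeR adjusted p = 0.0127) with LPS. LYZ, the lysozyme gene, was higher than in shNT cells by 1.68 ± 0.14 and 1.76 ± 0.09 in shNR4A2 control and LPS cells and by 2.25 ± 0.14 and 2.29 ± 0.13 in shNR4A3 control and LPS cells (edgeR adjusted p = 6.22e-05, 1.72e-05, 6.72e-07 and 2.03e-05). Of the 16 monocytic markers, 4 and 3 were called higher in shNR4A2 cells without and with LPS, 6 and 5 in shNR4A3 cells, and none lower. Of all tested genes 3.63%, 4.31%, 3.91% and 3.99% were called higher in these comparisons and 2.82%, 2.65%, 3.32% and 2.46% lower. With the block 8, 7, 8 and 8 of the markers were called higher and 2, 3, 0 and 1 lower, where 23.6%, 28.1%, 14.8% and 21.8% of all tested genes were called. These marker differences stand beside each comparison of a knockdown line with shNT, and their part in it was not tested. Fewer cells of a state and less RNA per cell cannot be told apart in bulk libraries.

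Some libraries stood apart. The second replicates of shNR4A2 control and of shNR4A3 control had the fewest genes with a count, 23968 and 23149, against 26241 to 30447 in the other 16 libraries. They also had the lowest MALAT1 levels, 33.3 and 35.1 TPM, against at least 101.6 TPM in the others. The MALAT1 values are given with and without them, and counts of calls without them follow the results on the gene lists.

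The 8 genes differed by orders of magnitude in unstimulated cells. In shNT control cells MALAT1 was the highest at 165 ± 59.5 TPM (SD, n = 3), and it ranked 14 among the 14411 long noncoding genes. NEAT1 followed at 16.8 ± 2.26 TPM and MIR155HG at 16.3 ± 0.979 TPM, with overlapping libraries. CYTOR was at 12.7 ± 0.508 TPM, below MIR155HG and above MIR17HG (5.59 ± 0.929 TPM) and MIR22HG (5.30 ± 1.30 TPM), which overlapped. LUCAT1 (0.640 ± 0.307 TPM) and MIR3142HG (0.351 ± 0.159 TPM) were lowest and also overlapped. With LPS the order changed: MIR3142HG, last of the 8 in the control group of each line, was first in shNT cells at 194 ± 44.4 TPM and in shNR4A3 cells at 247 ± 42.8 TPM, overlapping with MIR155HG in both. In shNR4A2 cells with LPS MIR155HG was first at 217 ± 29.4 TPM, above MIR3142HG at 151 ± 22.0 TPM, which overlapped with MALAT1 at 119 ± 30.0 TPM. LUCAT1 was the lowest of the 8 with LPS in each line.

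**Figure D1:**
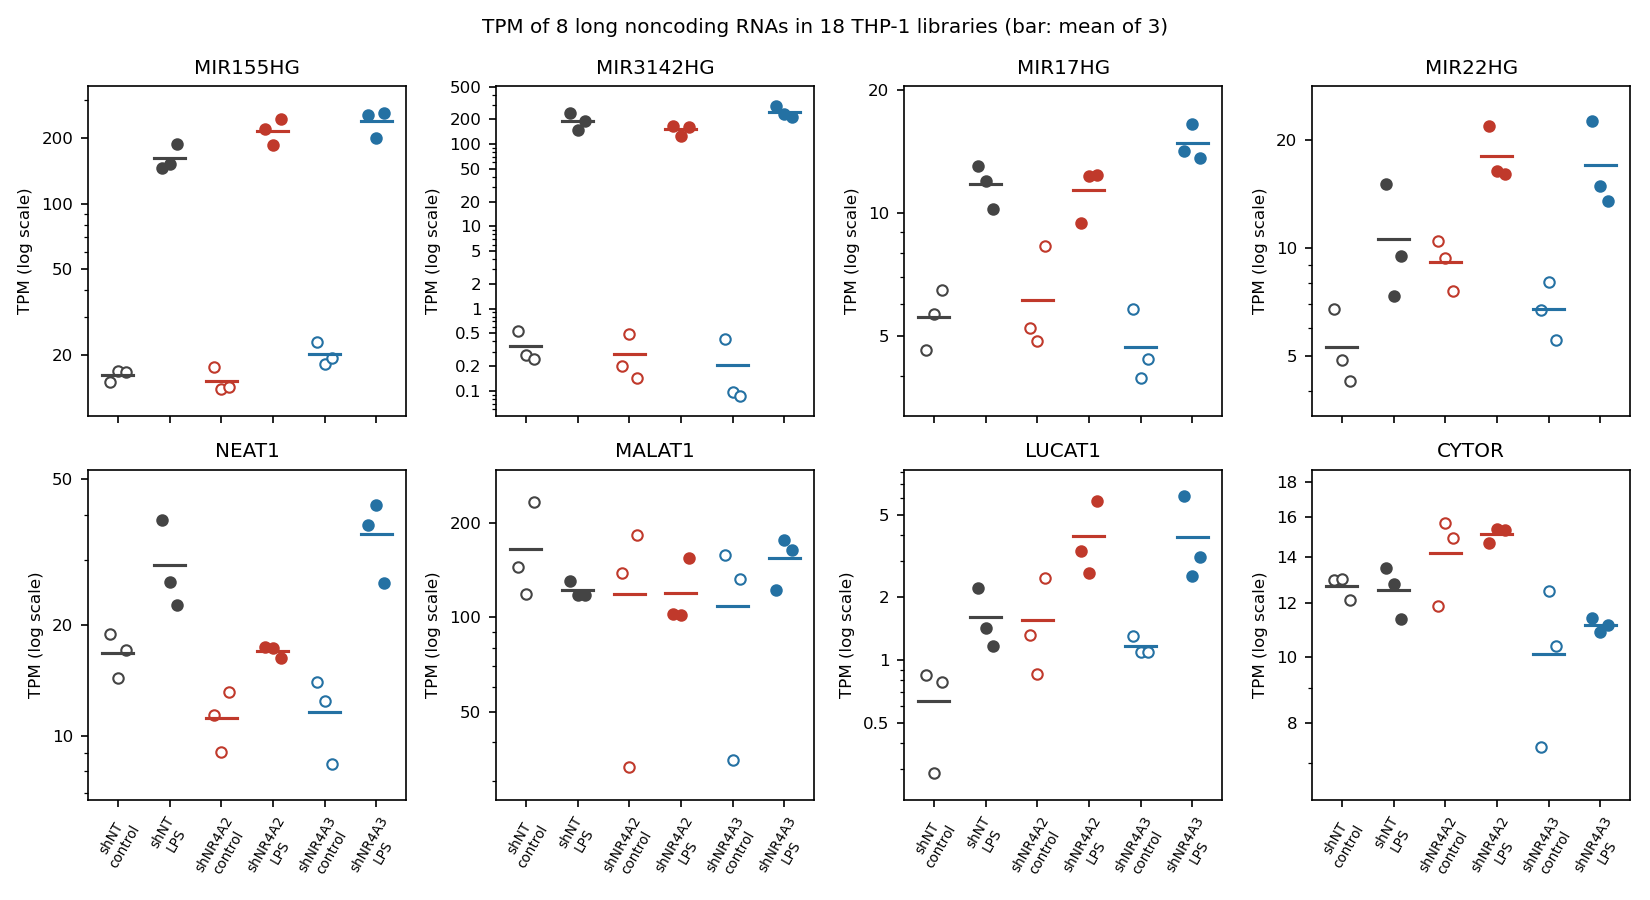
TPM (log axis, a different range in each panel) of the 8 genes in each of the 18 libraries, by line and state; open points are control and filled points LPS libraries, and bars are means of 3. MIR155HG and MIR3142HG rise in all lines, NEAT1 is near 17 TPM in the 3 shNR4A2 libraries with LPS against 22.7 TPM or more in the other LPS libraries, and MALAT1 has 2 low control libraries.

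The first question was how the 8 genes respond to LPS. MIR155HG, MIR17HG, MIR22HG and NEAT1 rose in each line and LUCAT1 in both knockdown lines, which made 4 of 6 genes counted in shNT and 5 of 7 in shNR4A2 and shNR4A3 cells. MIR3142HG in each line and LUCAT1 in shNT cells are not counted, because they reached the filter on low counts only through the LPS libraries, where they were high, so that a tested value had to differ. MALAT1 and CYTOR did not pass the test in any line. The share of all tested genes called higher was 11.6% in shNT, 9.23% in shNR4A2 and 13.1% in shNR4A3 cells, and among long noncoding genes alone 10.6%, 11.5% and 16.0%. In TPM, 4 of 6 counted genes in shNT and 5 of 7 in each knockdown line had LPS libraries wholly above the control libraries. These were the genes that rose, and such separation held for 8.43%, 7.87% and 10.5% of all tested genes. MIR3142HG in each line and LUCAT1 in shNT cells were separated too, which is a description for the reason given above. The median log2 fold change over the genes counted was 1.12 in shNT, 1.16 in shNR4A2 and 1.83 in shNR4A3 cells, against -0.01, -0.02 and -0.01 over all tested genes. With LPS the 8 genes took between 0.0556% and 0.0975% of all counts, against 0.0172% to 0.0677% without, so the ranges overlap. The values of 0.0172% and 0.0188% were those of the libraries low in MALAT1, and the other control libraries were at 0.0403% or more. An exact 2-sided permutation test of 3 libraries against 3 cannot go below p = 0.1, the value it gave for each of these genes in each line, so the calls rest on edgeR's quasi-likelihood test over all genes with Benjamini-Hochberg adjustment.

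**Figure D2:**
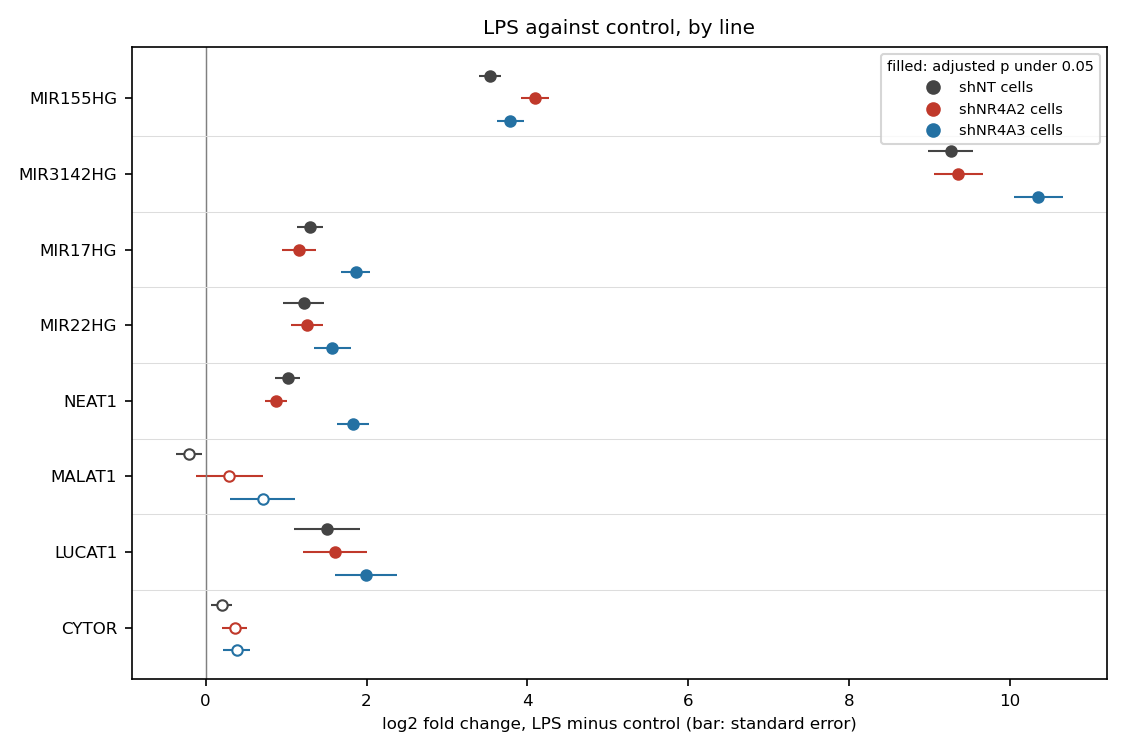
Log2 fold change (LPS minus control) of the 8 genes in shNT, shNR4A2 and shNR4A3 cells; bars are standard errors from edgeR and filled points passed an adjusted p of 0.05. MIR3142HG, which like LUCAT1 in shNT cells reached the test through its LPS libraries alone, lies above 9 and MIR155HG between 3.54 and 4.10, 4 genes lie between 0.87 and 1.99, and MALAT1 and CYTOR are open in all 3 lines.

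MIR3142HG (chr5:160468268-160487426, plus strand, 2301 exonic bases) was nearly silent without LPS. It had 7, 3 and 3 counts in shNT, 3, 6 and 2 in shNR4A2 and 5, 1 and 1 in shNR4A3 control libraries. With LPS it reached 238, 149 and 193 TPM in shNT, 164, 126 and 163 TPM in shNR4A2 and 295, 232 and 214 TPM in shNR4A3 cells. No control library came near an LPS library. The fitted log2 fold changes of MIR3142HG, given as a description, were 9.26 in shNT, 9.36 in shNR4A2 and 10.35 in shNR4A3 cells. Because the control counts are so few, the size of these folds depends on single reads: leaving out 1 library moved the value in shNR4A3 cells between 9.98 and 11.47.

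MIR155HG (chr21:25561909-25575168, plus strand, 1600 exonic bases) was well expressed before stimulation, at 15.1, 16.9 and 16.8 TPM in shNT control, 17.6, 14.1 and 14.3 in shNR4A2 control and 23.2, 18.2 and 19.4 in shNR4A3 control libraries. LPS took it to 146, 152 and 189 TPM in shNT, 221, 186 and 244 TPM in shNR4A2 and 255, 200 and 261 TPM in shNR4A3 cells. Every LPS library was above every control library, whatever the line. MIR155HG rose by a log2 of 3.54 ± 0.14 in shNT (edgeR adjusted p = 1.73e-10), 4.10 ± 0.18 in shNR4A2 (adjusted p = 6.85e-09) and 3.79 ± 0.17 in the shNR4A3 line (adjusted p = 3.83e-08).

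MIR17HG (chr13:91347820-91354579, plus strand, 3492 exonic bases) rose from 4.63, 5.66 and 6.48 TPM to 13.1, 12.02 and 10.3 TPM in shNT cells. In shNR4A2 cells it went from 5.24, 4.86 and 8.34 TPM to 9.49, 12.4 and 12.4 TPM, and in shNR4A3 cells from 5.82, 3.95 and 4.39 TPM to 14.2, 16.6 and 13.7 TPM. The groups of each line do not overlap, though the highest shNR4A2 control library is close to the lowest LPS library. MIR17HG rose by a log2 of 1.30 ± 0.16 in shNT (edgeR adjusted p = 3.21e-05), 1.16 ± 0.21 in shNR4A2 (adjusted p = 0.00201) and 1.86 ± 0.18 in the shNR4A3 line (adjusted p = 2.13e-05).

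MIR22HG (chr17:1711493-1717174, minus strand, 2986 exonic bases) went from 6.76, 4.88 and 4.27 TPM to 15.1, 7.36 and 9.48 TPM in shNT cells. The values were 10.5, 9.38 and 7.60 TPM before and 21.9, 16.4 and 16.1 TPM after LPS in shNR4A2 cells, and 6.74, 8.03 and 5.53 TPM before and 22.6, 14.9 and 13.5 TPM after in shNR4A3 cells. In each of the 3 LPS groups replicate 1 was the highest. The rise of MIR22HG was 1.22 ± 0.26 on the log2 scale in shNT (edgeR adjusted p = 0.00328), 1.25 ± 0.20 in shNR4A2 (adjusted p = 0.000703) and 1.57 ± 0.23 in the shNR4A3 line (adjusted p = 0.000413). WDR81, on the opposite strand, overlaps the span of MIR22HG without sharing exon bases, and whether the counting used strand is not given in the sources used here.

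NEAT1 (chr11:65422774-65445540, plus strand, 1 exon of 22767 bases) rose from 18.9, 14.4 and 17.1 TPM to 38.7, 26.3 and 22.7 TPM in shNT cells. It went from 11.4, 9.06 and 13.2 TPM to 17.5, 17.3 and 16.3 TPM in shNR4A2 cells and from 14.0, 12.4 and 8.36 TPM to 37.5, 42.4 and 26.1 TPM in shNR4A3 cells. The shNR4A2 LPS libraries were the most alike and the lowest of the 3 LPS groups, inside the range of the unstimulated shNT libraries. NEAT1 rose by a log2 of 1.02 ± 0.16 in shNT (edgeR adjusted p = 0.000319), 0.87 ± 0.14 in shNR4A2 (adjusted p = 0.000641) and 1.83 ± 0.20 in the shNR4A3 line (adjusted p = 5.67e-05). The annotation lists 8 transcripts of NEAT1, from 512 to 22743 bases, and the counts do not tell them apart. TPM here uses the full 22767 bases; if all reads came from a transcript of 3524 bases, the mean in shNT control cells would be 109 TPM in place of 16.8, with the fold changes as they are.

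LUCAT1 (chr5:91303029-91314402, minus strand, 2904 exonic bases) was, in the groups with LPS, the scarcest of the genes that rose. It had 14, 4 and 12 counts (0.847, 0.287 and 0.786 TPM) in shNT control and 37, 23 and 21 counts (2.22, 1.43 and 1.16 TPM) in shNT LPS libraries. In shNR4A2 cells it was at 1.32, 0.853 and 2.49 TPM in control and 3.34, 2.62 and 5.83 TPM with LPS, and in shNR4A3 cells at 1.30, 1.09 and 1.10 TPM in control and 6.11, 2.53 and 3.11 TPM with LPS. In shNT control cells 2 of the 3 libraries reached the filter on low counts, and in the other groups all did, so the fitted log2 difference of 1.51 in shNT cells is a description. LUCAT1 rose by 1.61 ± 0.40 in shNR4A2 (edgeR adjusted p = 0.0133) and 1.99 ± 0.39 in the shNR4A3 line (adjusted p = 0.00265). The call in shNR4A2 cells was lost without control replicate 2, where the adjusted p for LUCAT1 was 0.0741.

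MALAT1 (chr11:65497762-65506516, plus strand, 1 exon of 8755 bases) did not pass the test with LPS in any line. Its levels were 145, 119 and 232 TPM in shNT control and 130, 118 and 118 TPM in shNT LPS libraries. In shNR4A2 cells they were 139, 33.3 and 183 TPM in control and 102, 101.6 and 154 TPM with LPS, and in shNR4A3 cells 157, 35.1 and 132 TPM in control and 122, 176 and 164 TPM with LPS. The control and LPS groups overlap in each line, and the control group of each knockdown line holds 1 low library. For MALAT1 the log2 difference was -0.21 ± 0.16 in shNT (edgeR adjusted p = 0.396), 0.30 ± 0.42 in shNR4A2 (adjusted p = 0.673) and 0.71 ± 0.40 in the shNR4A3 line (adjusted p = 0.220). Without the low control library the values for MALAT1 were -0.14 ± 0.21 in shNR4A2 and 0.28 ± 0.14 in shNR4A3 cells, and neither passed the test. Without the filter on low counts, MALAT1 was called higher in shNR4A3 cells with all libraries in (0.72, edgeR adjusted p = 3.57e-11). That call came with a difference close to the filtered 0.71, the same overlapping groups and the low control library. It is therefore given as a description.

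CYTOR (chr2:87455368-87606805, plus strand, 3456 exonic bases) did not pass the test with LPS in any line. It was at 13.0, 13.0 and 12.1 TPM in control and 13.5, 12.8 and 11.4 TPM in LPS libraries of shNT cells, 11.9, 15.7 and 14.9 TPM and 14.7, 15.4 and 15.3 TPM in shNR4A2 cells, and 7.38, 12.5 and 10.4 TPM and 11.4, 10.9 and 11.1 TPM in shNR4A3 cells. The LPS groups overlap with the control groups in each line. The difference of CYTOR was 0.20 ± 0.13 on the log2 scale in shNT (edgeR adjusted p = 0.289), 0.36 ± 0.16 in shNR4A2 (adjusted p = 0.128) and 0.38 ± 0.17 in the shNR4A3 line (adjusted p = 0.123). These values are scaled by TMM, a normalization to the bulk of genes. In TPM the median gene was lower with LPS by a log2 of -0.23 in shNT, -0.28 in shNR4A2 and -0.24 in shNR4A3 cells, and 40.1%, 38.1% and 41.1% of genes had LPS libraries wholly below the control libraries, so a gene flat in TPM is slightly higher after TMM scaling. CYTOR has a near-identical relative, MIR4435-2HG, from which reads can be split uncertainly. With the counts of both summed, the log2 fold changes with LPS were 0.19, 0.37 and 0.24, and none passed the test. LINC01943, on the opposite strand, shares 100 exon bases with CYTOR, and whether the counting used strand is not given in the sources used here. LINC01943 had 241 counts over the 18 libraries, at most 27 in any of them.

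Promoters are shown for the 3 LPS-raised genes with a match to a searched motif and for CYTOR, whose promoter also held matches although CYTOR did not pass the LPS test. The windows are RefSeq's on GRCh38, 250 bases before to 50 after a transcript start, read 5′ to 3′ on the gene's strand, with motif matches in capitals. The search covered both strands for the kappaB consensus (the site of NF-kappaB, the main inflammatory transcription factor), the AP-1 site TGANTCA, the NBRE AAAGGTCA (the site that NR4A receptors bind as monomers), the CRE TGACGTCA and the E-box CACGTG. These were found in 5.91%, 7.71%, 1.22%, 1.85% and 7.26% of 35116 promoters of the same length. No matches overlapped.
MIR3142HG, chr5:160468001-160468300, plus strand: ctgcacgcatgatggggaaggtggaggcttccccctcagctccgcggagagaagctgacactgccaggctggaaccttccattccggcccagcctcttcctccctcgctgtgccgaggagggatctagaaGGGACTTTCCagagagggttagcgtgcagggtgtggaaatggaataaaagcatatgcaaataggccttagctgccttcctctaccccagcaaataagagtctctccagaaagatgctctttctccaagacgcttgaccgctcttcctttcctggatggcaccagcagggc
MIR155HG, chr21:25561895-25562194, plus strand: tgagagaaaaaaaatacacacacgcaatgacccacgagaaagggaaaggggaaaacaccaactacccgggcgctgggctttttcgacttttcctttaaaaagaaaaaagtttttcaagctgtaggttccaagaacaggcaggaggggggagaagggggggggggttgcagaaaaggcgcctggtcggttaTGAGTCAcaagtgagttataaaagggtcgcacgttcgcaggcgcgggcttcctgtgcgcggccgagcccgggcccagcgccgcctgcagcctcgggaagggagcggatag
LUCAT1, chr5:91314353-91314652, minus strand: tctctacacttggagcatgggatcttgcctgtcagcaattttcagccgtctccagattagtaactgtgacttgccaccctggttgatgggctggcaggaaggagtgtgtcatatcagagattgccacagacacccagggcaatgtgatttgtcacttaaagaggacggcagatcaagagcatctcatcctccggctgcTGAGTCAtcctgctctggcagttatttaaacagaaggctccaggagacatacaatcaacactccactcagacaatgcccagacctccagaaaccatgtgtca
CYTOR, chr2:87455177-87455476, plus strand: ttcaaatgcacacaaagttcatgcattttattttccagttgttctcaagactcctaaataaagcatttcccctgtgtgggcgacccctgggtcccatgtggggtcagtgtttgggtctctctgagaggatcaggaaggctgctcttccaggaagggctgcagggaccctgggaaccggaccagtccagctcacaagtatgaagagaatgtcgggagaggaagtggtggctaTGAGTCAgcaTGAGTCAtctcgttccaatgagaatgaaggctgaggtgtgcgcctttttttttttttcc
The kappaB match of MIR3142HG starts 120 bases before the transcript start. The AP-1 matches start 60 bases before it in MIR155HG, 52 in LUCAT1, and 19 and 9 in CYTOR. The windows of MIR17HG, MIR22HG and MALAT1 held no match, and none of the windows held the NBRE. A match describes the letters of the window; binding was not measured.

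The neighbours of the 8 genes give the local picture. Both tested genes next to MIR155HG were higher with LPS in each line, but reached the filter on low counts through the LPS libraries alone, so their fitted values are a description: in shNT cells 6.01 on the log2 scale for LINC00158, 130208 bases away, and 3.03 for LINC00515, 7602 bases away. ARRDC3, an arrestin-related gene 54322 bases from LUCAT1, rose by 1.498 ± 0.122 in shNT, 2.04 ± 0.15 in shNR4A2 and 2.00 ± 0.16 in shNR4A3 cells (edgeR adjusted p = 6.40e-07, 8.47e-07 and 5.50e-06). NEAT1 and MALAT1 lie 52222 bases apart on the same strand, and FRMD8, the tested gene on the outer side of NEAT1, was not called in any line. PTTG1, 39524 bases from MIR3142HG, differed by a log2 of 0.48 ± 0.11 in shNT (edgeR adjusted p = 0.00405), 0.42 ± 0.15 in shNR4A2 (adjusted p = 0.0704) and 0.50 ± 0.13 in the shNR4A3 line (adjusted p = 0.0177). TLCD2 and SERPINF2, on either side of MIR22HG, were not called in any line.

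The genes with the most similar pattern were taken by Pearson correlation of log2 expression over all 18 libraries, among 16935 genes. The values describe these libraries, which share the LPS contrast, and carry no test. For MIR3142HG the closest were the chemokine genes CCL4L2 (r = 0.996), CCL20 and CXCL2 (r = 0.995 each), and for MIR155HG the autophagy regulator DRAM1 (r = 0.996), the sugar transporter SLC2A6 (r = 0.995) and the Toll-like receptor kinase IRAK2 (r = 0.995). MIR17HG was closest to GBP1P1, AL031658.1 and NABP1 (r = 0.970, 0.967 and 0.962), and MIR22HG to the interleukin-10 receptor gene IL10RA, the adaptor SH2B3 and ZEB2-AS1 (r = 0.973, 0.969 and 0.967). NEAT1 was closest to AL691432.2, to PRDM1, which encodes the repressor Blimp-1, and to THUMPD3-AS1 (r = 0.931, 0.930 and 0.922). LUCAT1 was closest to ADAMDEC1, SAMSN1 and OGFRL1 (r = 0.950, 0.937 and 0.934), and CYTOR to LARP6, GPC3 and ATP9A (r = 0.931, 0.909 and 0.889). Among the 8 genes, MIR155HG and MIR3142HG were the most alike (r = 0.986).

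MALAT1 was set apart by its likeness: its closest genes were HIST1H4C (r = 0.881), USP45 (r = 0.866) and BCYRN1 (r = 0.857). HIST1H4C encodes a histone H4, USP45 a deubiquitinase, and BCYRN1 is a short RNA made by RNA polymerase III. HIST1H4C had 80, 49 and 76 counts in shNT control, 20, 1 and 43 in shNR4A2 control and 40, 0 and 51 in shNR4A3 control libraries, and 35 to 74 counts in the 9 LPS libraries. BCYRN1 had 200, 229 and 331 counts in shNT control, 220, 72 and 362 in shNR4A2 control and 202, 30 and 337 in shNR4A3 control libraries, and 197 to 476 with LPS. USP45 had 265, 217 and 334 counts in shNT control, 297, 147 and 310 in shNR4A2 control and 239, 158 and 217 in shNR4A3 control libraries, and 188 to 297 with LPS. The same pair of libraries was thus lowest in MALAT1, HIST1H4C, BCYRN1, USP45 and the number of genes with a count. The 71 histone genes together were not lowest in them: they took 0.00286% of the counts in the shNR4A2 library, against 0.0027% and 0.00362% in the others of its group, and 0.00328% in the shNR4A3 library, against 0.00301% and 0.00341%. NEAT1 was at 9.06 TPM in the shNR4A2 library, the lowest of its group (11.4 and 13.2 TPM in the others), and at 12.4 TPM in the shNR4A3 library, between the others of its group.

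**Figure D3:**
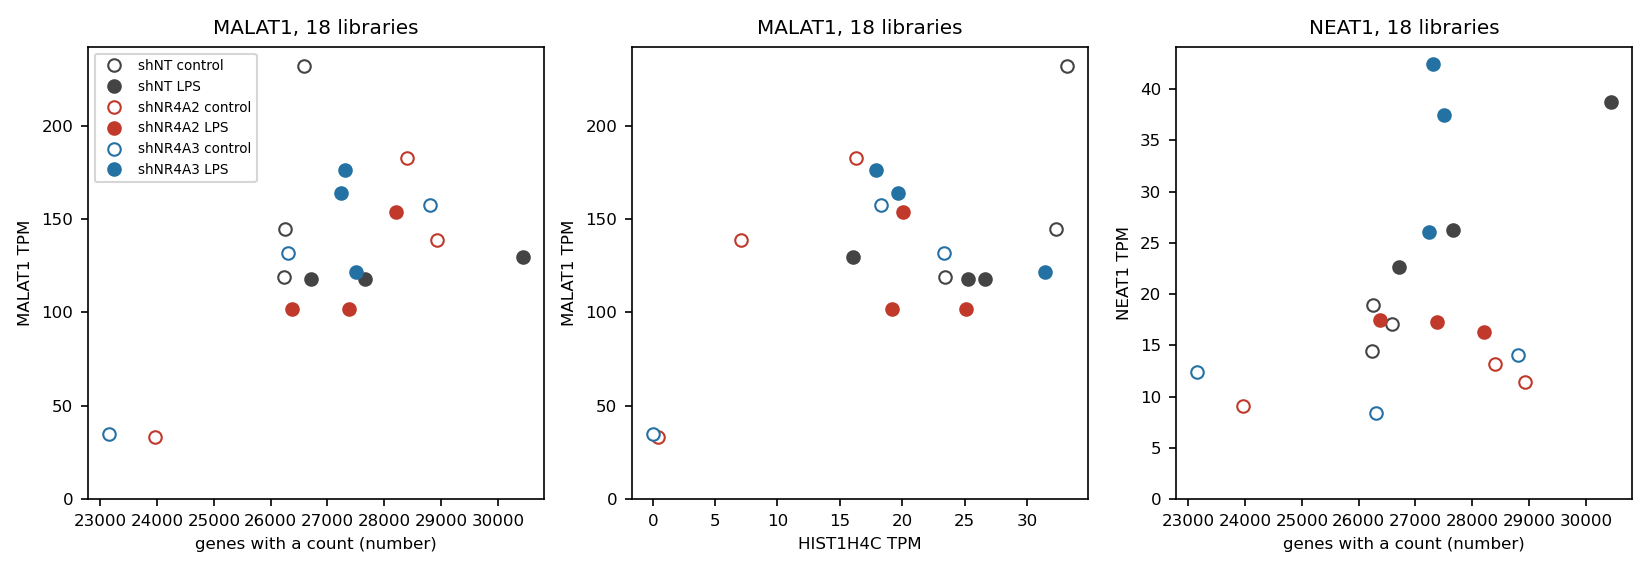
MALAT1 TPM against the number of genes with a count and against HIST1H4C TPM, and NEAT1 TPM against the number of genes with a count, for 18 libraries. The open points at 33.3 and 35.1 TPM of MALAT1 are the second replicates of shNR4A2 control and shNR4A3 control, lowest on both horizontal axes of MALAT1, and at 9.06 and 12.4 TPM of NEAT1 they lie within the span of the control libraries.

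The proteins that process or accompany these RNAs were followed through the LPS response as lists. Of each list at most the 2 largest rises and falls in a line are named. A gene not named in a line can still have been called there. Of 14 microRNA biogenesis genes, 1 rose and 3 fell in shNT, 0 rose and 1 fell in shNR4A2, and 0 rose and 2 fell in shNR4A3 cells, with median log2 fold changes of -0.21, -0.16 and -0.10, where 13.3%, 10.1% and 15% of all tested genes fell. With the replicate block, under which 30.1% and 39.4% of all genes were called, 3 rose and 2 fell in shNR4A2 and 2 rose and 5 fell in shNR4A3 cells. TNRC6A, a silencing partner of Argonaute, fell in all 3 lines (-0.62 ± 0.10, -0.63 ± 0.14 and -0.46 ± 0.09, edgeR adjusted p = 0.000418, 0.00582 and 0.00378), and DICER1, which makes the final cut, fell in shNT cells (-0.48 ± 0.12, edgeR adjusted p = 0.00897). RAN, the GTPase of nuclear transport, rose in shNT cells (0.23 ± 0.08, edgeR adjusted p = 0.0467), and TARBP2, a partner of Dicer, fell in shNR4A3 cells (-0.52 ± 0.11, edgeR adjusted p = 0.00336). Of 13 paraspeckle proteins, 2, 1 and 3 rose in shNT, shNR4A2 and shNR4A3 cells and none fell; SFPQ, a core protein of the body built on NEAT1, rose in each (0.35 ± 0.08, 0.36 ± 0.12 and 0.45 ± 0.08, edgeR adjusted p = 0.00415, 0.0491 and 0.00203). HNRNPK rose in shNT (0.25 ± 0.07, edgeR adjusted p = 0.0208) and RBM14 in shNR4A3 cells (0.34 ± 0.12, edgeR adjusted p = 0.0490). With the block 3 paraspeckle genes rose in shNR4A2 and 7 in shNR4A3 cells. Of 11 nuclear speckle proteins, 3 rose in shNT and 2 in shNR4A3 cells, and 1, SRRM2, fell in shNR4A2 cells (-0.44 ± 0.13, edgeR adjusted p = 0.0339). The splicing factor gene SRSF3 rose in shNT (0.33 ± 0.08, edgeR adjusted p = 0.00577) and shNR4A3 cells (0.25 ± 0.09, edgeR adjusted p = 0.0485), SRSF6 in shNT (0.28 ± 0.09, edgeR adjusted p = 0.0411) and SRSF5 in shNR4A3 cells (0.52 ± 0.13, edgeR adjusted p = 0.0124). The shares of all tested genes that rose were those given for the 8 genes, 11.6%, 9.23% and 13.1%.

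Of 20 published targets of the hosted microRNAs, 4 rose and 2 fell in shNT, 4 rose and 0 fell in shNR4A2, and 6 rose and 1 fell in shNR4A3 cells, with medians of 0.07, 0.02 and 0.01, beside 11.6%, 9.23% and 13.1% of all tested genes that rose and 13.3%, 10.1% and 15% that fell. With the block 6 rose and 3 fell in both shNR4A2 and shNR4A3 cells, where 30.1% and 39.4% of all tested genes were called. SOCS1, a cytokine signalling inhibitor and target of miR-155, fell in shNT (-2.001 ± 0.311, edgeR adjusted p = 0.000301) and shNR4A3 cells (-1.37 ± 0.30, edgeR adjusted p = 0.00534). BCL2L11, the cell death gene targeted by miR-17-92, rose by 1.51 ± 0.14, 1.48 ± 0.15 and 1.72 ± 0.12 in shNT, shNR4A2 and shNR4A3 cells (edgeR adjusted p = 1.96e-06, 1.95e-05 and 1.78e-06). TAB2, a signalling adaptor targeted by miR-155, rose by 0.96 ± 0.08, 1.43 ± 0.13 and 1.35 ± 0.14 (edgeR adjusted p = 1.14e-06, 6.51e-06 and 3.77e-05). INPP5D, a phosphatase targeted by miR-155, fell in shNT cells (-0.29 ± 0.10, edgeR adjusted p = 0.0493).

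Of the 6 tested among 14 other microRNA host genes, 2 rose in each line: MIR222HG, by 2.51 ± 0.24, 1.33 ± 0.22 and 2.70 ± 0.25, and MIRLET7BHG, by 0.65 ± 0.15, 1.08 ± 0.22 and 1.22 ± 0.19 in shNT, shNR4A2 and shNR4A3 cells. Of 24 other long noncoding RNAs, 1 of whose symbols, LINC-PINT, stands for 2 genes, 4 of 21 counted genes rose in shNT, 3 of 20 rose and 1 fell in shNR4A2, and 6 of 20 rose in shNR4A3 cells, where 11.6%, 9.23% and 13.1% of all tested genes rose. With the block 5 rose and 2 fell in shNR4A2 and 7 rose in shNR4A3 cells, where 30.1% and 39.4% of all tested genes were called. One of the LINC-PINT genes is not counted, because it reached the filter on low counts through the LPS libraries alone; its fitted values were 2.40, 3.60 and 3.70. SNHG15, a snoRNA host gene, rose in shNT (0.43 ± 0.10, edgeR adjusted p = 0.00478) and shNR4A2 cells (0.49 ± 0.14, edgeR adjusted p = 0.0220). SNHG15 was also called higher in shNR4A3 cells when control replicate 2 was left out. KCNQ1OT1, an imprinted RNA, had the largest rise of the 6 in shNR4A3 cells (1.03 ± 0.22, edgeR adjusted p = 0.00478). HOTAIRM1, a myeloid RNA of the HOXA cluster, fell in shNR4A2 cells (-0.99 ± 0.25, edgeR adjusted p = 0.0152). As a check on the stimulus, 12 of 12 listed LPS genes, the cytokine and chemokine genes TNF, IL6, IL1B, CXCL8 and CCL20 and the NF-kappaB inhibitor NFKBIA among them, were called higher in every line, IL6 having reached the filter through the LPS libraries alone. Without control replicate 2 of the line, the low library, SFPQ and SRRM2 were no longer called in shNR4A2 cells and 1 paraspeckle (SFPQ) and 1 speckle gene (SRSF5) were called in shNR4A3 cells, where 16.3% and 23.5% of all tested genes were called. Of the published targets 4 were then higher and 0 lower in shNR4A2 cells, and 4 were higher and 2 lower in shNR4A3 cells.

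The second question was whether these RNAs differed in the lines with hairpins against NR4A2 or NR4A3. The comparisons of the knockdown lines with shNT share the shNT libraries of the same state. Libraries with the same replicate number deviated together in all comparisons of lines, so values from a model that blocks on that number are given beside each. The blocked model called more genes in every comparison of lines.

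**Figure D4:**
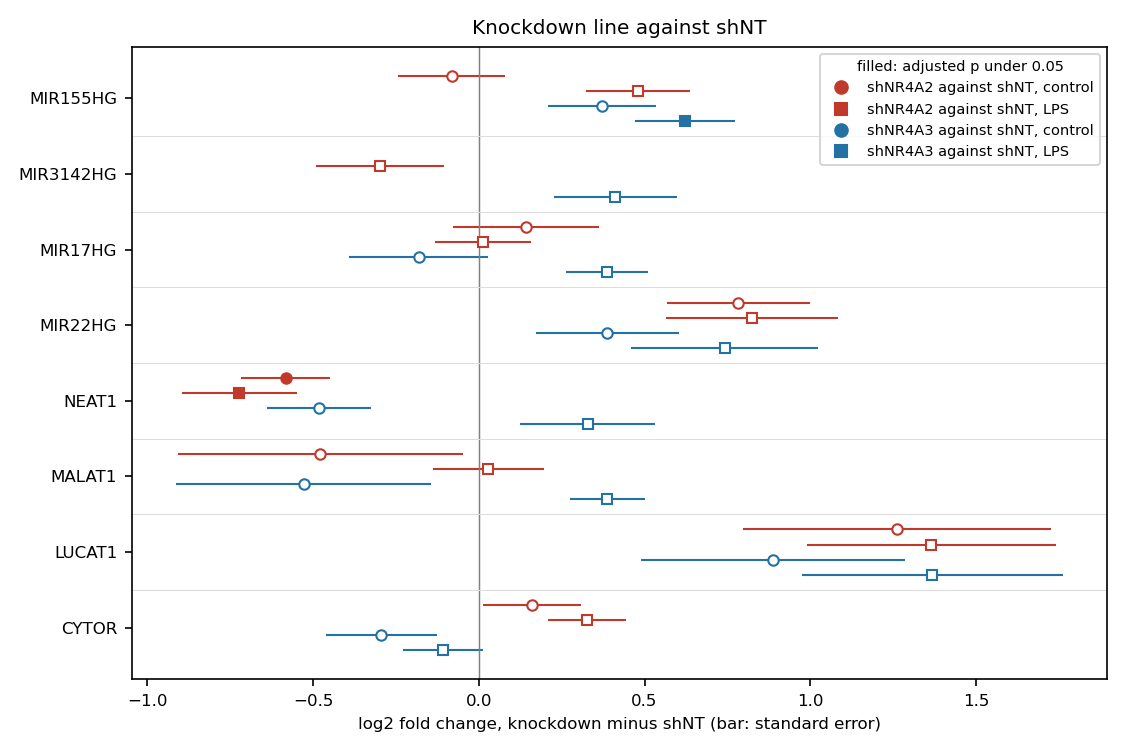
Log2 fold change (knockdown line minus shNT) of the 8 genes in control cells (circles) and with LPS (squares) for shNR4A2 and shNR4A3; bars are edgeR standard errors and filled symbols passed an adjusted p of 0.05 without the replicate block. NEAT1 in shNR4A2 cells (-0.58 and -0.72) and MIR155HG in shNR4A3 cells with LPS (0.62) are the filled ones, and MIR3142HG has no control value because its counts were too low to test.

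In shNR4A2 cells NEAT1 was the 1 gene of the 8 that passed the test, and it was lower in both states. Against shNT, the log2 fold change of NEAT1 was -0.58 ± 0.13 in control (edgeR adjusted p = 0.0242) and -0.72 ± 0.17 with LPS (edgeR adjusted p = 0.0384), a TPM ratio of 0.667 and 0.583, and none of the shNR4A2 libraries overlapped with shNT libraries of the same state. In these comparisons 6.45% and 6.96% of tested genes were called, 2.82% and 2.65% lower, and 12.1% and 16.4% had groups that did not overlap with the knockdown lower. The call was sensitive to leaving out 1 library. In control it was lost without any of 3 of the 6 libraries (shNT replicates 1 and 3, shNR4A2 replicate 1). With LPS it was lost without any of 5 of 6 (all but shNT replicate 3). The edgeR adjusted p was then up to 0.101 and 0.0845. A fit over all 18 libraries also ended the call without LPS (-0.59, edgeR adjusted p = 0.0841) and kept that with LPS (-0.73, edgeR adjusted p = 0.0257). With 1 library left out, the log2 fold change of NEAT1 stayed between -0.70 and -0.47 in control and between -0.86 and -0.47 with LPS. DESeq2 called NEAT1 lower in both states (adjusted p = 0.00146 and 0.00143).

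MIR22HG in both states was higher in every shNR4A2 library than in any shNT library of the same state without passing the test. With LPS the same held for LUCAT1 and CYTOR. Of all tested genes 13.7% were separated upwards in this way in control and 10.8% with LPS. For MIR22HG the log2 fold change was 0.78 ± 0.21 (edgeR adjusted p = 0.0531) in control and 0.82 ± 0.26 (adjusted p = 0.0939) with LPS. For LUCAT1 with LPS it was 1.36 ± 0.38 (edgeR adjusted p = 0.0620). Without LPS LUCAT1 had 14, 4 and 12 counts in shNT and 25, 13 and 44 in shNR4A2 libraries and reached the filter on low counts only through the latter, so its fitted 1.26 is a description and it is left out of the counts of control calls. Its control libraries were separated in TPM only narrowly, at 0.853 TPM in shNR4A2 replicate 2 against 0.847 TPM in shNT replicate 1. DESeq2 called MIR22HG in both states (adjusted p = 0.0262 and 0.0240) and LUCAT1 with LPS (adjusted p = 0.0160). With the replicate block 3 of 6 counted genes were called in control, MIR22HG (0.79, edgeR adjusted p = 0.00163) higher, NEAT1 (-0.59, adjusted p = 0.000226) and MALAT1 (-0.71, adjusted p = 0.0449) lower, where 23.6% of all tested genes were called. MALAT1 in this comparison was -0.05 ± 0.21 without the block when the low shNR4A2 control library was left out.

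With LPS and the block, 6 of the 8 genes were called in shNR4A2 cells, where 28.1% of all tested genes were. MIR22HG (0.86, edgeR adjusted p = 1.66e-07), MIR155HG (0.48, adjusted p = 9.74e-07), LUCAT1 (1.34, adjusted p = 0.000103) and CYTOR (0.33, adjusted p = 0.0231) were higher, and NEAT1 (-0.69, adjusted p = 2.44e-10) and MIR3142HG (-0.29, adjusted p = 0.00109) lower. Without the block MIR155HG was at 0.48 ± 0.16 (edgeR adjusted p = 0.102), MIR3142HG at -0.30 ± 0.19 (adjusted p = 0.401) and CYTOR at 0.33 ± 0.12 (adjusted p = 0.134). With CYTOR and MIR4435-2HG summed, the difference was 0.48 ± 0.10 (edgeR adjusted p = 0.0189), and MIR4435-2HG alone was higher by 0.67 ± 0.12 (adjusted p = 0.0117).

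In shNR4A3 control cells none of the 6 counted genes passed the test in edgeR (2 had an unadjusted p under 0.05), where 7.23% of all tested genes did. DESeq2 called 1 of them, NEAT1. The log2 fold change of NEAT1 was -0.48 ± 0.16 (edgeR adjusted p = 0.0882), and with the block it was -0.51 (adjusted p = 0.0131), the 1 call among the 6 where 14.8% of tested genes were called. All shNR4A3 libraries lay below all shNT libraries in NEAT1, and above them in MIR155HG (0.37 ± 0.16, edgeR adjusted p = 0.211). Groups without overlap were found for 24.3% of tested genes. LUCAT1 also lay above (fitted 0.89), from 14, 4 and 12 counts in shNT and 19, 14 and 16 in shNR4A3 libraries. It reached the filter only through the shNR4A3 libraries, so its values are a description.

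In shNR4A3 cells with LPS, MIR155HG was higher than in shNT cells by a log2 of 0.62 ± 0.15 (edgeR adjusted p = 0.0395), a TPM ratio of 1.47. Of all tested genes 6.45% were called, 3.99% higher. The call for MIR155HG was lost without any of 4 of the 6 libraries (shNT LPS replicates 1 and 2, shNR4A3 LPS replicates 1 and 3), with an adjusted p of up to 0.152 and a log2 fold change between 0.54 and 0.77. NEAT1 was at 0.33 ± 0.20 (edgeR adjusted p = 0.376). LUCAT1 (1.37 ± 0.39, adjusted p = 0.0708) and MIR17HG (0.39 ± 0.12, adjusted p = 0.0971) also lay wholly above shNT cells, as did 10.4% of tested genes. DESeq2 called LUCAT1 (adjusted p = 0.0198) and MALAT1 (0.38, adjusted p = 0.0245) in addition to MIR155HG.

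With the block 7 of the 8 genes were called in shNR4A3 cells with LPS, all higher, where 12.3% of all tested genes were called higher. The blocked log2 fold changes were 1.33 for LUCAT1 (edgeR adjusted p = 0.00146), 0.75 for MIR22HG (0.000577), 0.62 for MIR155HG (0.000144), 0.42 for MIR3142HG (0.00196), 0.39 for MIR17HG (0.0173), 0.38 for MALAT1 (0.00921) and 0.34 for NEAT1 (0.0227). CYTOR, at -0.11 (edgeR adjusted p = 0.514), was the exception.

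The direct comparison of the knockdown lines showed where they part. With LPS, NEAT1 was lower in shNR4A2 than in shNR4A3 cells by a log2 of -1.05 ± 0.16 (edgeR adjusted p = 0.0134), a TPM ratio of 0.482, with no overlap between 16.3 to 17.5 TPM and 26.1 to 42.4 TPM. Of all tested genes 2.33% were called, 1.06% lower, and 21.1% had groups that did not overlap. Without shNR4A3 LPS replicate 1 the adjusted p for NEAT1 was 0.0613. MIR3142HG (-0.71 ± 0.18, adjusted p = 0.0850) and MIR17HG (-0.37 ± 0.13, adjusted p = 0.195) were also lower without overlap, and CYTOR higher (0.44 ± 0.12, adjusted p = 0.0973). DESeq2 called MIR3142HG as well (adjusted p = 0.00650). With the block 5 of the 8 were called, where 23.6% of all genes were: NEAT1 (-1.03, edgeR adjusted p = 1.00e-05), MIR3142HG (-0.70, 9.79e-05), MIR17HG (-0.37, 0.0266), MALAT1 (-0.38, 0.0169) and CYTOR (0.44, 0.00547).

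Without LPS none of the 7 tested genes passed the test between shNR4A2 and shNR4A3 cells (2 had an unadjusted p under 0.05, and DESeq2 called none), where 3.08% of all tested genes did. NEAT1 differed by -0.10 ± 0.18 (edgeR adjusted p = 0.874) and MALAT1 by 0.05 ± 0.52 (adjusted p = 0.981), or 0.06 ± 0.14 without the low library of each group. With the block MIR155HG (-0.45, edgeR adjusted p = 0.0363) and CYTOR (0.46, adjusted p = 0.0179) were called, where 11.6% of all tested genes were.

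The last question was whether the response to LPS itself differed between lines, tested as the interaction of line and LPS over 12 libraries. None of the 8 genes passed, nor did any of 16674, 16428 and 16447 tested genes (0% called by edgeR in each interaction, with 365, 824 and 396 genes at an unadjusted p under 0.05 and 2, 10 and 1 called by DESeq2). The log2 LPS response of NEAT1, shNR4A2 minus shNR4A3, was -0.96 ± 0.27 (unadjusted p = 0.00276 in edgeR's fit, adjusted p = 1.00) and shNR4A3 minus shNT 0.81 ± 0.30 (unadjusted p = 0.0154, adjusted p = 0.942). For MIR17HG the difference was 0.56 ± 0.24 for shNR4A3 minus shNT and -0.70 ± 0.29 for shNR4A2 minus shNR4A3 (unadjusted p = 0.0300 and 0.0277 in edgeR's fit). For MIR155HG it was 0.56 ± 0.22 for shNR4A2 minus shNT (unadjusted p = 0.0240 in edgeR's fit, adjusted p = 1.00).

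The lists around these RNAs were compared between lines in the same way. In shNR4A2 cells 2 of 14 microRNA biogenesis genes were lower in both states and none higher: AGO2, the slicing Argonaute (-0.64 ± 0.15 in control and -0.43 ± 0.11 with LPS, edgeR adjusted p = 0.0272 and 0.0457), and XPO5, which exports precursors from the nucleus (-0.36 ± 0.09 and -0.43 ± 0.09, edgeR adjusted p = 0.0348 and 0.0205). Of all tested genes 2.82% and 2.65% were lower. In shNR4A3 cells edgeR called 0 of 14 in either state, with 3 in control and 4 with LPS at an unadjusted p under 0.05, and DESeq2 called 0 and 1. With the block 3 were lower in shNR4A2 control, 4 in shNR4A2 with LPS and 2 in shNR4A3 control cells, and in shNR4A3 cells with LPS 1 was higher and 3 were lower, where 23.6%, 28.1%, 14.8% and 21.8% of all tested genes were called with the block. Of the 13 paraspeckle proteins edgeR and DESeq2 called 0 in each comparison with shNT (0 at an unadjusted p under 0.05 in edgeR, or 2 in shNR4A3 cells with LPS), and of the 11 nuclear speckle proteins also 0 (0 at an unadjusted p under 0.05, or 2 in shNR4A2 cells with LPS). With the block, 1 paraspeckle protein was lower in shNR4A2 cells with LPS, and 2 were higher and 1 lower in shNR4A3 cells with LPS. Of the speckle proteins 1 was higher and 1 lower in shNR4A2 control cells and 5 were lower in shNR4A2 cells with LPS. Of the 20 published targets, 1 was higher in shNR4A2 control, and 3 in each of shNR4A2 with LPS, shNR4A3 control and shNR4A3 with LPS, with none lower, where 3.63%, 4.31%, 3.91% and 3.99% of all tested genes were higher. With the block 8, 10, 7 and 9 were higher and 0, 2, 0 and 1 lower. MAF, a macrophage transcription factor targeted by miR-155, was the largest of these in shNR4A2 cells (1.94 ± 0.28 in control and 1.71 ± 0.40 with LPS, edgeR adjusted p = 0.00233 and 0.0348) and was also higher in shNR4A3 control cells (1.33 ± 0.26, edgeR adjusted p = 0.00795). CDKN1A, the cell cycle inhibitor p21, was higher in shNR4A2 cells with LPS than in shNT (0.90 ± 0.10, edgeR adjusted p = 0.00119) and shNR4A3 cells (0.55 ± 0.09, edgeR adjusted p = 0.0194). In shNR4A3 cells SPI1, which encodes the myeloid factor PU.1, was higher in control (0.37 ± 0.10, edgeR adjusted p = 0.0411) and with LPS (0.55 ± 0.12, edgeR adjusted p = 0.0297), and TAB2 with LPS (0.75 ± 0.14, edgeR adjusted p = 0.0138).

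Of the LPS response genes, edgeR called 0 of 11 in shNR4A2 control cells (2 had an unadjusted p under 0.05, and DESeq2 called 0) and 1 of 12 higher with LPS, IL6 (1.69 ± 0.37, edgeR adjusted p = 0.0272). In shNR4A3 control cells 2 of 11 were lower, CCL2 (-1.56 ± 0.25, edgeR adjusted p = 0.00181) and TNF (-1.02 ± 0.21, edgeR adjusted p = 0.00970). With LPS 2 of 12 were higher there, IL6 (1.83 ± 0.43, edgeR adjusted p = 0.0343) and the adhesion gene ICAM1 (0.95 ± 0.18, edgeR adjusted p = 0.0138). With the block 1, 3, 1 and 6 were higher and 1, 2, 3 and 1 lower in shNR4A2 control, shNR4A2 with LPS, shNR4A3 control and shNR4A3 with LPS. The shares of all tested genes, in that order, were those given for the monocytic markers. Without the block 3.63%, 4.31%, 3.91% and 3.99% were higher and 2.82%, 2.65%, 3.32% and 2.46% lower. Under the block 23.6%, 28.1%, 14.8% and 21.8% were called, and 12.3% were higher in shNR4A3 cells with LPS. IL6 and ICAM1 were thus higher in the same libraries as MIR155HG, and their part in that difference was not tested.

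Of the other long noncoding RNAs, 0, 1, 0 and 1 were called higher and 1, 1, 0 and 0 lower in the comparisons with shNT taken in that order, and with the block 1, 1, 2 and 4 higher and 7, 7, 1 and 1 lower. Of all tested genes 3.63%, 4.31%, 3.91% and 3.99% were called higher and 2.82%, 2.65%, 3.32% and 2.46% lower, and 23.6%, 28.1%, 14.8% and 21.8% were called with the block. In shNR4A3 control cells, where edgeR called 0, 4 had an unadjusted p under 0.05 and DESeq2 called 1. TUG1 was lower in shNR4A2 than in shNT cells in both states (-0.37 ± 0.10 and -0.39 ± 0.09, edgeR adjusted p = 0.0415 and 0.0339) and lower than in shNR4A3 cells with LPS (-0.53 ± 0.09, edgeR adjusted p = 0.0190). SNHG8, a snoRNA host gene, was lower in shNR4A2 than in shNR4A3 control cells (-0.59 ± 0.13, edgeR adjusted p = 0.0300). LINC-PINT, in its responsive gene, was higher with LPS in shNR4A2 (1.52 ± 0.31, edgeR adjusted p = 0.0210) and shNR4A3 cells (1.55 ± 0.30, edgeR adjusted p = 0.0147) than in shNT cells. Of the tested microRNA host genes, MIR222HG was higher in shNR4A2 control cells (1.12 ± 0.27, edgeR adjusted p = 0.0301) and MIR600HG lower in shNR4A2 and shNR4A3 control cells (-0.89 ± 0.23 and -0.97 ± 0.23, edgeR adjusted p = 0.0435 and 0.0206).

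The control comparisons were also counted without the low library of each knockdown line. In shNR4A2 against shNT control cells 6.92% of all tested genes were then called, NEAT1, AGO2, XPO5, MAF, MIR222HG, LYZ and PECAM1 were called, and NR4A2, TUG1 and MIR600HG were not. Of the monocytic markers 5 were higher and 1 lower. In shNR4A3 against shNT control cells 6.16% of all genes were called, MAF, TAB2, CCL2, TNF and LYZ were called, SPI1 and MIR600HG were not, and 6 monocytic markers were higher. Between the knockdown lines, without both low libraries, 1.62% of all genes were called in control, 259 in place of 480, with none of the 8 among them.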

How the data were processed

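Per the labels, polyadenylated RNA of 18 libraries was sequenced from both ends. The submitters' processing notes name Trimmomatic 0.36, STAR 2.5.2b, featureCounts, Subread 1.5.2 and GRCh38, and the authors deposited raw whole-number counts per Ensembl gene with each gene's position and length. Symbols came from GENCODE 29 (56898 of 57500 genes), and TPM was computed from the counts and deposited lengths. The strand setting of the counting is not given in the sources used here.

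Each comparison was fitted on its own libraries in edgeR 4.0.16 (R 4.3.3) with filterByExpr, TMM and the quasi-likelihood F test, with Benjamini-Hochberg adjustment over all genes tested and calls at an adjusted p under 0.05. Alternatives were DESeq2 1.42.0, its size factors, no filter, a replicate block, a shared fit over all 18 libraries and each library left out. Replicate numbers come from the labels; same-numbered libraries correlated in their deviations by more than 0.1 in every replicate of each comparison except LPS in shNT cells (0.0598 in replicate 2) and the interactions of each knockdown line with shNT (0.0174 and 0.0266). The smallest value in the comparisons of lines was 0.159. No libraries were identical.

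The genes, lists and tests were chosen with earlier results of these data known. Beside the 8 genes, the text names NR4A1 to NR4A3, from each gene list called genes with the 2 largest rises and falls in a comparison, the 3 most correlated genes, the nearest tested neighbours and the hosted microRNAs. LYZ, TYROBP, FCER1G, PECAM1, CD3E and HBB of the marker lists, NFKBIA, WDR81 and LINC01943, outside this rule, were named after their values were seen. Sequences were matched by symbol or microRNA name to RefSeq tables on GRCh38. The promoter of NEAT1 was not used here.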

Additional observations from a re-analysis of the deposited data

How the results depend on the processing

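With LPS, 6 of the 8 genes (including MIR3142HG, and LUCAT1 in shNT cells, which reached the filter through their LPS libraries alone) were called in each line under every alternative run, except that 7 were called in shNR4A3 cells without a filter on low counts (MALAT1 in addition) and 5 to 6 in shNT and in shNR4A2 cells with single libraries left out. No called fold change reversed. The comparisons of lines were not stable. Their control counts include LUCAT1, which reached the filter against shNT only through the knockdown libraries. For shNR4A2 against shNT without LPS, 2 genes were called by DESeq2, 4 without a filter on low counts, 4 with the replicate block, 0 with all 18 libraries in 1 fit and 0 to 2 with single libraries left out. With LPS these counts were 3, 4, 6 and 2, 2 with CYTOR and MIR4435-2HG summed (chosen after seeing the data), and 0 to 2. For shNR4A3 against shNT without LPS they were 1 (DESeq2), 2 (no filter), 1 (replicate block) and 0 to 1 (single libraries left out), and with LPS 3, 6, 7 and 0 to 2. For shNR4A2 against shNR4A3 without LPS the replicate block gave 2; with LPS DESeq2 gave 2, no filter 2, the block 5, all 18 libraries 2, CYTOR and MIR4435-2HG summed 2, and single libraries left out 0 to 1. Without a filter, the interactions called 2 genes (shNR4A3 minus shNT) and 1 gene (shNR4A2 minus shNR4A3). The cause of these moves was not tested.

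Over all genes, the block raised the calls in the LPS comparison of shNR4A2 cells from 3050 to 4751 and in the 6 comparisons of lines from 1019, 1085, 1108, 1005, 480 and 362 to 3733, 4385, 2267, 3401, 1800 and 3666. All 18 libraries in 1 fit gave 4601 for LPS in shNR4A2 cells and 1346 and 1691 for shNR4A2 against shNT without and with LPS. The same fit gave 1032 for shNR4A2 against shNR4A3 with LPS. Without a filter, shNR4A2 against shNT gave 1611 and 1843 (without and with LPS), shNR4A3 against shNT 1467 and 1839, and shNR4A2 against shNR4A3 838 and 1102. The interactions then gave 29, 138 and 29 in place of 0. With single libraries left out, shNR4A2 against shNT gave 517 to 1128 genes without and 342 to 1477 with LPS, shNR4A3 against shNT 649 to 975 and 383 to 1693, and shNR4A2 against shNR4A3 249 to 470 and 94 to 217. DESeq2 gave 1287 and 1430 for shNR4A2 against shNT without and with LPS and 1151 and 1308 for shNR4A3 against shNT. For shNR4A2 against shNR4A3 it gave 643 and 689. In the comparisons where the libraries numbered replicate 2 correlated by less than 0.1, the block called 5029 genes in place of 3909 (LPS in shNT cells) and 8 and 22 genes in the 2 interactions with shNT. MIR3142HG had 1 to 7 counts per library without LPS, too few to test between lines.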
